A study of Mus musculus with 9 samples.

Results

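Transcripts of 8 genes of the S100 family were followed across the nuclei of injured mouse hearts: S100a8 and S100a9, which encode the 2 subunits of calprotectin, and S100a1, S100a4, S100a6, S100a10, S100a11 and S100b. They were chosen by name, as 8 of the 32285 genes measured, and were described by their level in each marker-defined cell class and group of hearts. Single-nucleus RNA was sequenced from 9 hearts, 1 library per heart, of male wild-type mice aged 9 to 10 weeks. The sham group (NS-Sham) had a thoracotomy without coronary occlusion and received normal saline (NS). The saline I/R group (NS-I/R) had the left anterior descending coronary artery closed for 45 min, then 24 h of reperfusion (ischemia-reperfusion, I/R), and also received saline. The enpatoran I/R group (Enpa-I/R) had the same operation and received enpatoran, an antagonist of the RNA-sensing receptors TLR7 and TLR8, at 5 mg/kg. All mice had 2 intraperitoneal injections, of which the first preceded the occlusion by 1 h. The labels give 2 different times for the second one, and no sham group received enpatoran. Each group had 3 hearts, so that n = 3 for every mean ± SD given here.

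S100 proteins are small calcium-binding proteins with a pair of EF hands, found only in vertebrates and usually paired as dimers. Inside the cell they bind target proteins when calcium rises. Several also leave the cell, and S100A8 and S100A9, which are stored in the cytosol of neutrophils and of some monocytes, then act as alarm signals through TLR4 and the receptor RAGE. In the heart the family is best known for S100A1, a regulator of calcium cycling in cardiomyocytes, and for calprotectin, which neutrophils carry into infarcted muscle.

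A level is given either as UMIs per nucleus (a UMI, or unique molecular identifier, stands for 1 counted RNA molecule) or as CPM, the UMIs of a gene per 1000000 UMIs of the class. Nuclei kept for analysis numbered 41979 of 56766 barcodes. They had a median of 2365 to 3263.5 UMIs per library, and 5 to 20 barcodes were shared between any 2 libraries. Clusters fell into 14 classes named from marker genes, called here cardiomyocyte-like and so on. Each marker of the cardiomyocyte, fibroblast, endothelial, macrophage and neutrophil sets was detected in the class of that name. Because the names came from these markers, that is no check of them. A single cluster, led by heat-shock genes, stayed unnamed, with 410 nuclei in saline I/R, 10 in enpatoran I/R and 0 in sham hearts. Of the saline I/R libraries, replicate 3 stood apart in calprotectin, with 99.0 S100a8 CPM over all nuclei against 33.7 and 23.7 in replicates 1 and 2. The main calprotectin results are given with and without it.

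Of the 8 genes, 7 lie on mouse chromosome 3 and S100b lies on chromosome 10, in the GRCm38 annotation. S100a8 spans chr3:90668978-90670035 on the plus strand and S100a9 spans chr3:90692632-90695721 on the minus strand. They are neighbours, with 22596 bp and no annotated gene between them. Because these 2 genes moved together in the hearts, the sequence from 250 bases before to 30 bases after each RefSeq transcription start is shown (GRCm38.p6, read 5′ to 3′ on the strand of the gene), at chr3:90668821-90669100 for S100a8 and chr3:90695692-90695971 for S100a9. Capitals mark matches to 4 motifs searched on both strands: TTGCNNAA (C/EBP), GAGGAA (PU.1), TGANTCA (AP-1) and TATAAA, the box of core promoters.
S100a8: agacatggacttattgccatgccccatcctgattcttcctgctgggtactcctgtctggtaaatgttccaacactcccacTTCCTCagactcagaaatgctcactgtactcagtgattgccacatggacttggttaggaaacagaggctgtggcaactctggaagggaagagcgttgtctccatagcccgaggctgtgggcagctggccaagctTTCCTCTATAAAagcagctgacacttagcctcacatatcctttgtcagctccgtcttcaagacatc
S100a9: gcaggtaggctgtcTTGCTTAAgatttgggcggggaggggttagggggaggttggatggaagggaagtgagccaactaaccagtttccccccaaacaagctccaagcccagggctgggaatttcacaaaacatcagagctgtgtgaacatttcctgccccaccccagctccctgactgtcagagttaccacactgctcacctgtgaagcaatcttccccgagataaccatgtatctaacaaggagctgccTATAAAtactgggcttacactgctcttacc
The S100a8 window held the PU.1 letters on the opposite strand at positions -170 and -36 from the start, the second directly followed by TATAAA at -30. The S100a9 window held the C/EBP letters at -236 and TATAAA at +1. Among 32851 RefSeq promoter windows of the same length, 28.3% held the PU.1 letters, 10.8% the C/EBP letters, 13.6% TATAAA and 7.81% the AP-1 letters. Promoter windows were matched for 7 of the 8 genes. S100a4 had TATAAA at -31 and PU.1 letters at +20. S100a11 had AP-1 letters at -136 and -38 and PU.1 letters at -153. The windows of S100a1, S100a6 and S100b held none of the 4 motifs. These are matches of letters and not measured binding sites.

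Calprotectin transcripts were nearly absent from sham hearts and rose in every I/R heart. Over all nuclei, S100a9 stood at 0.374, 0.322 and 0.214 CPM in sham hearts, at 50.1, 39.2 and 110.5 in saline I/R and at 20.8, 37.5 and 17.4 in enpatoran I/R. S100a8 stood at 0.436, 0.289 and 0.0714, at 33.7, 23.7 and 99.0, and at 16.4, 26.9 and 13.03 CPM, in the same order. The sham values did not overlap with those of either I/R group for either gene, and those of enpatoran I/R lay below those of saline I/R for S100a9 but overlapped for S100a8. In pooled CPM, saline I/R exceeded sham 212-fold for S100a9 (counting interval 136 to 353, from 19 sham UMIs) and 185-fold for S100a8 (116 to 319, from 17 sham UMIs). Without saline I/R replicate 3 the ratios were 142 for S100a9 (90.9 to 237) and 102 for S100a8 (63.4 to 175). In sums over all nuclei, more cells of a type and more RNA per cell cannot be told apart.

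Most of these UMIs came from neutrophil-like nuclei, whose number changed with the operation. Each sham library held 2 such nuclei. The saline I/R libraries held 410, 398 and 556, or 8.84% ± 1.29 of nuclei, and the enpatoran I/R libraries 116, 154 and 56, or 2.72% ± 1.92. The shares of the I/R groups did not overlap. In saline I/R this class supplied 62.1% of all S100a9 UMIs and 59.3% of all S100a8 UMIs from 8.87% of the nuclei, and in enpatoran I/R 62.1% and 57.4% from 2.43% of the nuclei.

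Within neutrophil-like nuclei, S100a9 averaged 1.56, 1.52 and 2.62 UMIs per nucleus in saline I/R and 3.095, 2.82 and 2.82 in enpatoran I/R. S100a8 averaged 0.971, 0.802 and 2.33 in saline I/R and 2.17, 1.96 and 1.91 in enpatoran I/R. All enpatoran I/R values of S100a9 lay above all those of saline I/R, whereas for S100a8 saline I/R replicate 3 was the highest library of either group. The edgeR quasi-likelihood test over the 6 I/R libraries, with Benjamini-Hochberg adjustment over 6568 genes, called none of the 6 members tested, against 1.81% of all genes. The log2 difference, enpatoran I/R minus saline I/R, was 0.97 for S100a9 (SE 0.240, adjusted p = 0.0576, unadjusted p = 0.00116) and 0.97 for S100a8 (SE 0.280, adjusted p = 0.0835, unadjusted p = 0.00368), and these 2 members alone had an unadjusted p under 0.05. Without saline I/R replicate 3 both were called, at 1.03 for S100a9 (adjusted p = 0.000372) and 1.29 for S100a8 (adjusted p = 2.48e-05), and DESeq2 called 1 member with all libraries. The summed level of the 9 neutrophil markers, which include no S100 gene, was 12.01, 14.8 and 11.5 UMIs per nucleus in enpatoran I/R against 7.93, 6.37 and 11.5 in saline I/R, where replicate 3 again reached the enpatoran hearts. Its part in the result was not tested.

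Neutrophil-like nuclei differed widely from one another in calprotectin. At least 1 UMI of S100a8 or S100a9 was present in 73.7% of those of saline I/R and 75.8% of those of enpatoran I/R, and both genes were present in 53.7% and 64.8% of these positive nuclei. Sums of 5 or more UMIs of the pair occurred in 25.6% and 36.2% of all neutrophil-like nuclei, and the highest single nucleus held 53 UMIs in saline I/R and 63 in enpatoran I/R. With a median depth of 894.5 to 1309.5 UMIs per library in this class, a nucleus without a UMI may still carry the transcript.

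Outside neutrophils, S100a8 and S100a9 appeared in every tested class of the I/R hearts at levels far below those of neutrophil-like nuclei. The median over the 7 tested classes that are not leukocytes was 0.0658, 0.0657 and 0.138 S100a9 UMIs per nucleus in saline I/R replicates 1 to 3, and 0.0282, 0.0513 and 0.0351 in enpatoran I/R. It was 0 in all 3 sham libraries. In replicates 1 to 3 of saline I/R the 7 classes ran from 0.0247 (smooth muscle-like) to 0.145 (lymphatic endothelial-like), from 0.0539 to 0.0720 and from 0.113 to 0.225, and in enpatoran I/R replicate 1 from 0.0144 to 0.197. The extremes of replicate 1 rested on 81 and 76 nuclei, and the median depths of the 7 classes in that library ran from 1672 to 9124 UMIs. Endothelial-like nuclei held 0.0695, 0.0674 and 0.113 S100a9 UMIs per nucleus in saline I/R and fibroblast-like nuclei 0.0658, 0.0539 and 0.184. Cardiomyocyte-like nuclei, the deepest class, held 0.0914, 0.0720 and 0.200, and pericyte-like nuclei 0.0640, 0.0657 and 0.135. In each of these 4 classes saline I/R replicate 3, the library whose neutrophils were richest in calprotectin, was the highest of the 3, and the neutrophil marker set moved with them, from 0.0296 to 0.296 UMIs per endothelial-like nucleus and from 0.0164 to 0.340 per cardiomyocyte-like nucleus between sham and saline I/R hearts.

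**Figure D1:**
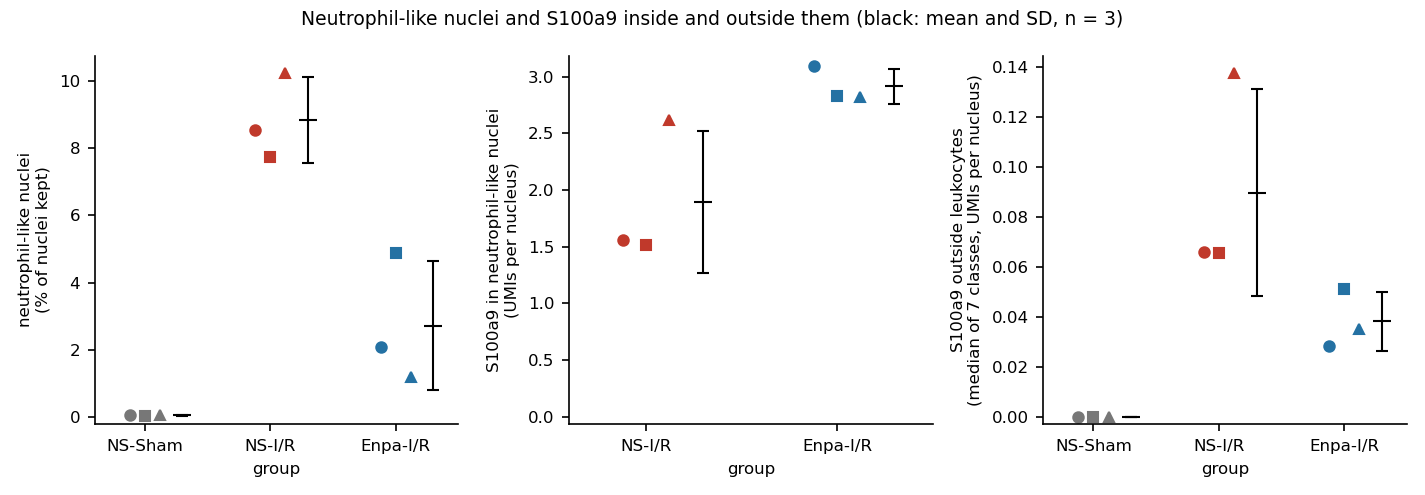
Neutrophil-like nuclei as a percentage of all nuclei (left), S100a9 UMIs per neutrophil-like nucleus (middle) and the median S100a9 UMIs per nucleus over the 7 classes that are not leukocytes (right), 1 point per heart, with black bars for the mean and SD of each group. The enpatoran I/R hearts had a lower share of neutrophil-like nuclei (2.72% ± 1.92 against 8.84% ± 1.29) and a lower level outside leukocytes than the saline I/R hearts, while their neutrophil-like nuclei carried on average 2.91 S100a9 UMIs against 1.897.

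The proportion of S100a8 to S100a9 was compared across classes as a description, and the source of the RNA was not tested. In pooled saline I/R nuclei S100a8 made up 42.7% of the pair's UMIs in neutrophil-like nuclei (95% Clopper-Pearson interval 41.3 to 44.2). It made up 43.5% in endothelial-like (39.1 to 47.9), 41.5% in fibroblast-like (37.5 to 45.6), 46.9% in cardiomyocyte-like (43.1 to 50.8) and 47.3% in pericyte-like nuclei (39.96 to 54.8). These 4 intervals overlapped with that of the neutrophil-like nuclei. The share was 56.8% in endocardial-like nuclei (47.3 to 65.9), 49.1% in macrophage-like nuclei (45.0 to 53.2) and 18.2% in lymphatic endothelial-like nuclei (6.98 to 35.5, few UMIs), whose intervals did not overlap with it. Such intervals and floors cover counting error only.

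The ratio also varied between libraries, in the same order in only some classes. In neutrophil-like nuclei it was 0.624, 0.529 and 0.890 S100a8 UMIs per S100a9 UMI in saline I/R replicates 1 to 3, and in endothelial-like nuclei 0.662, 0.481 and 1.01, so that both classes had their lowest value in replicate 2 and their highest in replicate 3. Fibroblast-like nuclei gave 0.631, 0.776 and 0.716, without that order. Macrophage-like nuclei gave 0.808, 1.23 and 0.961, above the neutrophil-like value in each library. In replicate 2 the counting intervals of the S100a8 share in these 2 classes did not overlap, at 45.2% to 65.0% for macrophage-like and 31.5% to 37.8% for neutrophil-like nuclei, and in replicates 1 and 3 they did.

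In saline I/R, macrophage-like nuclei had higher S100a9 than each of the 7 tested classes that are not leukocytes in every library. The small Schwann-like class, not tested, was higher in replicate 2, at 0.241 on 29 nuclei. S100a9 stood at 0.166, 0.115 and 0.342 UMIs per nucleus in saline I/R and at 0.0814, 0.125 and 0.0939 in enpatoran I/R, and S100a8 at 0.134, 0.142 and 0.329 and at 0.0488, 0.0957 and 0.0718. In enpatoran I/R they did not stand above all 7, since lymphatic endothelial-like nuclei reached 0.197 in replicate 1 and smooth muscle-like nuclei 0.141 in replicate 2, and for S100a8 the mean was higher in lymphatic endothelial-like (0.0809) than in macrophage-like nuclei (0.0721). After each nucleus was thinned to 1000 UMIs, S100a9 was detected in 6.37%, 4.42% and 8.09% of macrophage-like nuclei of saline I/R and in none of 720 sham nuclei pooled over 3 hearts. By counting error alone this allows up to 0.417% of sham nuclei with a UMI at that depth, and it does not limit how many carry the transcript. It was detected in 3.71%, 3.67% and 5.48% of endothelial-like nuclei of saline I/R. Thinning left out 189 shallower macrophage-like nuclei of saline I/R and 103 of sham hearts. The mean share of 6.29% ± 1.84 in saline I/R exceeded that in sham hearts by 6.29 percentage points, and 3 against 3 libraries give an exact two-sided permutation p = 0.1, the smallest the design allows. Without thinning the share was 11.2% ± 5.11, at median depths of 2035 to 2149.5 UMIs in the macrophage-like class and 1550 to 1672 in the endothelial-like one. The 9 neutrophil markers summed to 0.243 UMIs per macrophage-like nucleus in sham hearts, 1.85 in saline I/R and 0.968 in enpatoran I/R, all 9 being detected in both I/R groups. Their part in the macrophage-like level was not tested.

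The macrophage-like class comprised 2 clusters whose proportions shifted, with cluster 20 rising from 6.56% of it in sham hearts to 52.3% in saline I/R and 37.4% in enpatoran I/R. Cluster 20, whose leading genes include Arg1, Tgfbi and Itgam, held 0.304 S100a9 UMIs per nucleus in saline I/R, against 0.121 in cluster 14, led by F13a1, Mrc1 and Cd163. In sham hearts, the 54 nuclei of cluster 20 held no S100a8 or S100a9 UMI (up to 5.56% with one is allowed by counting error alone). Nuclei with 5 or more UMIs of the pair were 23 of 1404 macrophage-like nuclei in saline I/R and 5 of 1137 in enpatoran I/R, compared in saline I/R with 15 of 3253 fibroblast-like, 12 of 2940 cardiomyocyte-like, 4 of 1070 pericyte-like and 2 of 3433 endothelial-like nuclei. Lymphocyte classes were small. T and NK cell-like nuclei held 0.154, 0.185 and 1.40 S100a9 UMIs per nucleus in saline I/R, the last again in replicate 3. Beside these stood 0.769, 0.444 and 8.16 UMIs of the neutrophil markers. B cell-like nuclei held 0.130, 0.313 and 0.543, beside 1.52, 0.938 and 2.54.

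Where sham nuclei of a class held no UMI, the change is a lower bound, computed with 3 UMIs in place of the sham sum. For S100a8 in endothelial-like nuclei (220 UMIs in saline I/R against 0) it was at least 87.3-fold higher. S100a8 in the macrophage-like class (293 against 0) was at least 58.2-fold higher, and S100a9 in the pericyte-like class (98 against 0) at least 38.5-fold higher. Without saline I/R replicate 3 these bounds were 51.7, 37.8 and 26.3. With 1 sham UMI, the ratio for S100a9 was 181 in macrophage-like nuclei (counting interval 32.2 to 7175) and 341 in endothelial-like nuclei (60.6 to 13500), and without that replicate 117 and 272. Both genes passed the low-count filter in 5 of the 8 classes tested, cardiomyocyte-, endothelial-, fibroblast-, macrophage- and pericyte-like, through the I/R libraries in which they were high. Passing that way, they had to differ, so that their being called in all 5 is no support. They passed in none of the 3 other classes.

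Across the family, 46 of the 64 combinations of a gene and a tested class passed the filter, and 30 of them were called between saline I/R and sham hearts, 25 higher and 5 lower. Over all genes and the same classes 31.2% of tests were called, 15.8% higher and 15.3% lower. Of the 30, 10 were S100a8 and S100a9, which the filter fixed, and without these genes 20 of 36 were called, 15 higher and 5 lower. The 20 still include members with few sham UMIs, such as S100a4 in cardiomyocyte- and endothelial-like nuclei (10 and 12). These passed the filter mainly through the I/R libraries, so that their calls are no support. Over all nuclei 7 of the 8 members were called, 6 higher and S100a1 lower, against 47.8% of all genes. The map of changes by class shows that direction depended on the gene as well as on the class.

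**Figure D2:**
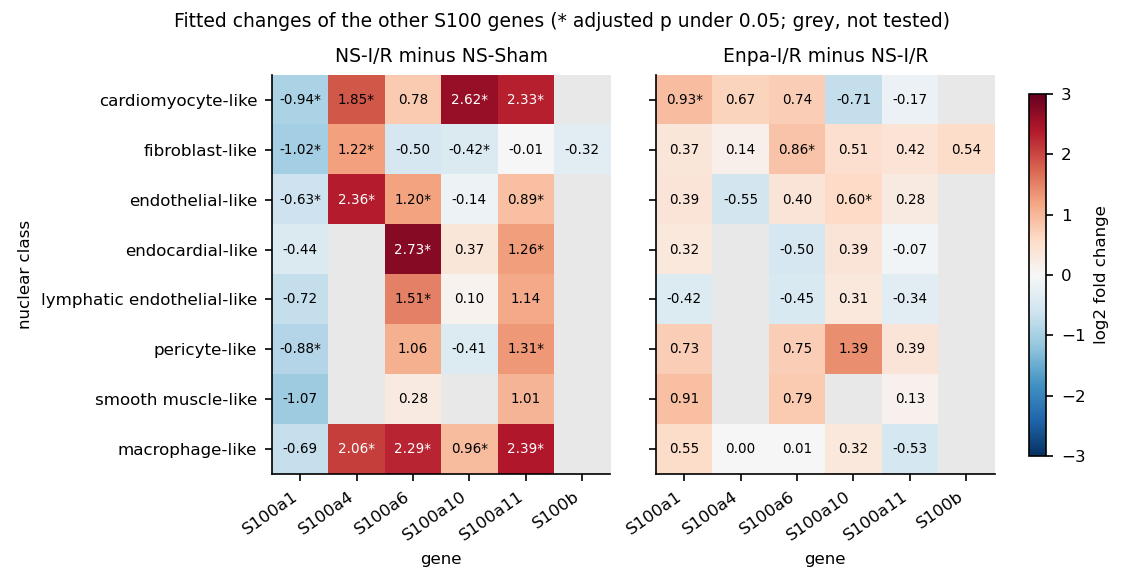
Log2 fold change of S100a1, S100a4, S100a6, S100a10, S100a11 and S100b in 8 cell classes, saline I/R minus sham (left) and enpatoran I/R minus saline I/R (right), from edgeR. Asterisks mark an adjusted p under 0.05 and empty cells were not tested. S100a1 was negative in all 8 classes after I/R, while S100a4 and S100a11 were positive wherever they were called.

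S100a1, which regulates the ryanodine receptor and the calcium pump of the sarcoplasmic reticulum, was the member most often called lower. In cardiomyocyte-like nuclei it stood at 70.3, 34.2 and 68.6 CPM in sham hearts, at 23.8, 24.6 and 41.8 in saline I/R and at 60.0, 47.1 and 59.5 in enpatoran I/R. Sham replicate 2 was low and saline I/R replicate 3 was higher than it, so that the saline groups overlapped, and every enpatoran I/R library lay above every saline I/R library. The log2 change after I/R was -0.94 (SE 0.288, adjusted p = 0.0219), and the call was lost without sham replicate 1 or 3 or saline I/R replicate 1 or 2 (adjusted p = 0.0792, 0.0802, 0.0703 and 0.0701). The class shifted in makeup: cluster 2 held 70.3% of cardiomyocyte-like nuclei in sham hearts and 3.81% in saline I/R, while cluster 4, which has Xirp2, Ank3 and Nrap among its leading genes, held 51.1% in saline I/R. In cluster 1, present in all groups, S100a1 went from 88.0 CPM in sham hearts to 31.5 in saline I/R (log2 change -1.36, adjusted p = 0.0148) and 61.3 in enpatoran I/R. In cluster 0, also tested, it went from 99.4 to 60.2 and was not called (-0.72, adjusted p = 0.223). Clusters 2 and 3, not tested, went from 46.2 to 33.6 and from 88.7 to 84.3. Between the I/R groups it was called in neither cluster 0 nor cluster 1 (adjusted p = 0.581 and 0.0853).

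S100a1 was also called lower in fibroblast-like (-1.02, SE 0.279, adjusted p = 0.0104), endothelial-like (-0.63, SE 0.187, adjusted p = 0.0184) and pericyte-like nuclei (-0.88, SE 0.271, adjusted p = 0.0266), and the median over all 8 classes was -0.80. Fibroblast-like nuclei held 50.8, 23.1 and 46.4 CPM in sham hearts, 20.9, 16.2 and 26.8 in saline I/R and 30.1, 23.1 and 28.1 in enpatoran I/R. Endothelial-like nuclei held 74.6, 53.1 and 85.5, then 51.9, 41.2 and 51.2, then 67.4, 52.2 and 62.7. In the fibroblast-like class saline I/R replicate 3 overlapped with sham replicate 2, and in the endothelial-like class sham and saline I/R did not overlap. Each call was lost without some library: the fibroblast-like one without sham replicate 1 (adjusted p = 0.055), the endothelial-like one without sham replicate 1 or 3 or saline I/R replicate 2 (0.0594, 0.0808 and 0.0785), and the pericyte-like one without sham replicate 1 or 3 or saline I/R replicate 1 or 2 (0.129, 0.0634, 0.0767 and 0.0927). These classes also changed in makeup. Fibroblast cluster 11 went from 5 sham nuclei to 61.3% of the class in saline I/R, and endothelial cluster 9 from 17 sham nuclei to 35.7%. Within single clusters S100a1 was called in none of those tested, at -0.95 and 0.07 in fibroblast clusters 10 and 13 (adjusted p = 0.0822 and 0.956) and at -0.90 to -0.36 in endothelial clusters 5 to 8 (adjusted p = 0.0615 to 0.361). Over all nuclei the log2 change was -0.98 (SE 0.242, adjusted p = 0.0076) and the call held in all 15 alternatives, with a range of -1.47 to -0.83.

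S100a1 was shared more evenly between classes than Ttn or Myl2. Per nucleus, its level in endothelial-like nuclei amounted to 25.6%, 30.1% and 20.4% of that in cardiomyocyte-like nuclei in the sham, saline and enpatoran groups, and in fibroblast-like nuclei to 24.5%, 26.0% and 18.96%. In endothelial-like nuclei the same share was 1.43%, 1.28% and 1.14% for Ttn, the titin gene, and 14.1%, 18.2% and 15.2% for Myl2, a ventricular myosin light chain. The summed cardiomyocyte markers moved with S100a1, from 569 to 345 UMIs per cardiomyocyte-like nucleus, from 12.6 to 6 per endothelial-like nucleus and from 12.2 to 6.56 per fibroblast-like nucleus between sham and saline I/R hearts. In cardiomyocyte-like nuclei Ttn, Myh6, Tnnt2, Myl2, Rbm20 and Tnni3 fell, with Ttn the largest part of the sum (265 to 143). Actn2 (16.4 to 17.4) and Fhl2 (63.06 to 63.13) did not fall there, and Fhl2 rose in fibroblast-like nuclei (0.604 to 1.08). The part of the marker set in the fall of S100a1 was not tested. By share of UMIs, cardiomyocyte-like nuclei supplied 56.5% of S100a1 in sham hearts, 46.5% in saline I/R and 60.2% in enpatoran I/R.

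**Figure D3:**
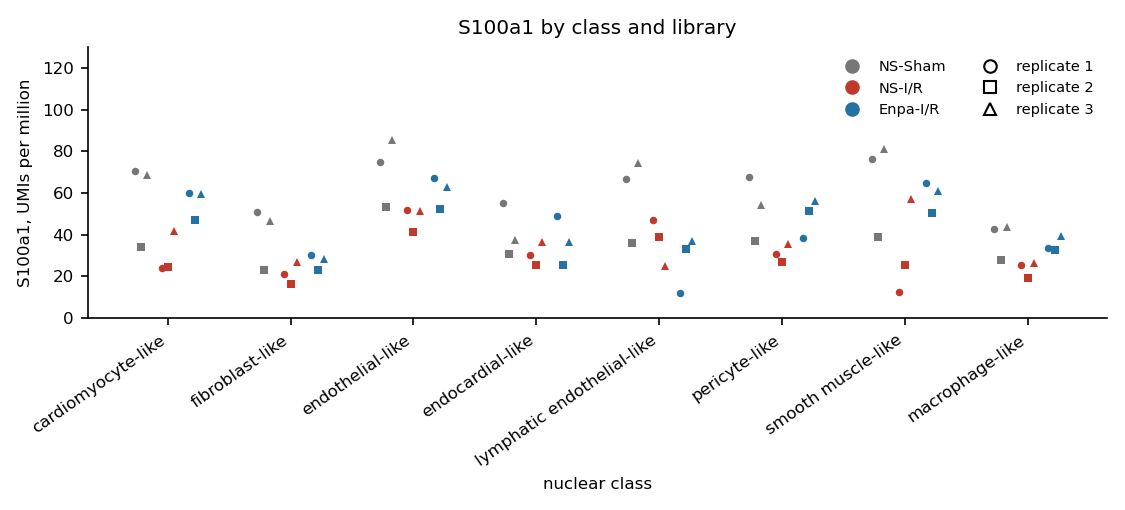
S100a1 CPM by cell class, 1 point per library, coloured by group. In cardiomyocyte-like nuclei the saline I/R libraries lay between 23.8 and 41.8 and the enpatoran I/R libraries between 47.1 and 60.0, while the sham libraries spread from 34.2 to 70.3.

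S100a4, which binds non-muscle myosin IIA and is associated with motile fibroblasts and leukocytes, was called higher in macrophage-, endothelial-, cardiomyocyte- and fibroblast-like nuclei. It passed the filter in these 4 classes, in the cardiomyocyte- and endothelial-like ones with 10 and 12 sham UMIs and so mainly through the I/R libraries. The calls in those 2 classes are therefore no support. In macrophage-like nuclei S100a4 stood at 11.02, 12.1 and 30.7 CPM in sham hearts, at 60.9, 72.1 and 74.8 in saline I/R and at 82.5, 66.3 and 58.3 in enpatoran I/R. Both I/R groups lay above all sham hearts and overlapped with each other. The log2 change after I/R was 2.06 in macrophage-like nuclei (SE 0.304, adjusted p = 0.000101), 2.36 in endothelial-like (SE 0.459, adjusted p = 0.00157), 1.85 in cardiomyocyte-like (SE 0.515, adjusted p = 0.0143) and 1.22 in fibroblast-like nuclei (SE 0.332, adjusted p = 0.0102). Schwann-like nuclei, where it was not tested, went from 79.4 CPM in sham hearts to 20.5 in saline I/R, on 17 and 6 UMIs. Levels in endothelial-like nuclei were lower, at 3.25, 0.978 and 0.528 in sham hearts and 7.35, 8.06 and 9.69 in saline I/R. The cardiomyocyte-like call was lost without sham replicate 2 or 3 (adjusted p = 0.0771 and 0.0515) and the fibroblast-like call without sham replicate 2 (adjusted p = 0.0679).

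Within the macrophage-like class, cluster 20 held 0.262 S100a4 UMIs per nucleus in saline I/R against 0.0776 in cluster 14, and the change was also called within cluster 14 alone (log2 1.78, adjusted p = 0.0215). Within fibroblast cluster 10, present in all groups, it was 2.05 (adjusted p = 0.00163), and in cluster 13 it was 0.94 and not called (adjusted p = 0.354). Macrophage-like nuclei supplied 21.5% of all S100a4 UMIs in sham hearts and 39.1% in saline I/R, and fibroblast-like nuclei 36.9% and 30.8%. If every S100a9 UMI of a class came with the other genes at the ratio of neutrophil-like nuclei, that would amount to 1.29% of the S100a4 UMIs in macrophage-like, 1.94% in fibroblast-like nuclei, 5.37% in endothelial-like nuclei and 10.8% in cardiomyocyte-like nuclei of saline I/R.

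S100a6, also called calcyclin, rose in 4 of the 8 classes, but fibroblast-like nuclei were not among them. In sham hearts these supplied 67.1% of its UMIs, and there it did not pass the test after I/R (log2 -0.50, SE 0.232, adjusted p = 0.0975). Their levels were 175, 128 and 178 CPM in sham hearts, 99.3, 91.1 and 186 in saline I/R and 200, 230 and 245 in enpatoran I/R. Saline I/R replicate 3 was as high as the sham hearts, the 2 other saline I/R libraries were below them, and all enpatoran I/R libraries were above all others. The call between the I/R groups was log2 0.86 (SE 0.231, adjusted p = 0.0383). In fibroblast cluster 11, which held 5 sham nuclei and 61.3% of the class in saline I/R, S100a6 stood at 0.426 UMIs per nucleus in saline I/R and 1.20 in enpatoran I/R. The median depth of this cluster was 3400 and 4541 UMIs in these groups, and in CPM S100a6 stood at 105 and 220.5. In cluster 10 it stood at 0.553, 0.598 and 0.791 UMIs per nucleus, or 152, 173 and 226 CPM, in the sham, saline and enpatoran groups.

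Elsewhere S100a6 rose after I/R. In macrophage-like nuclei it went from 31.5, 22.4 and 30.7 CPM in sham hearts to 147, 121 and 150 in saline I/R (log2 2.29, SE 0.223, adjusted p = 1.88e-06) and 154, 156 and 111 in enpatoran I/R. In endocardial-like nuclei, which line the heart chambers, it went from 27.6, 18.4 and 6.22 to 165, 111 and 112 (log2 2.73, SE 0.351, adjusted p = 0.000135) and 97.4, 110 and 54.8. In endothelial-like nuclei it went from 26.0, 24.7 and 29.6 to 48.4, 56.0 and 90.5 (log2 1.20, SE 0.223, adjusted p = 0.00115) and 96.8, 68.8 and 80.8. None of the sham values overlapped with an I/R value in these 3 classes. Lymphatic endothelial-like nuclei rose by 1.51 (SE 0.324, adjusted p = 0.00301), and within macrophage cluster 14 the change was 1.9 (adjusted p = 0.000278). Endothelial clusters 5, 6 and 8 gave 1.33, 1.54 and 1.09 (adjusted p = 0.0246, 0.0105 and 0.0253), and cluster 7 gave 0.42, not called (adjusted p = 0.395). Over all nuclei the change was 0.69 (SE 0.197, adjusted p = 0.0155), lost without sham replicate 2 (adjusted p = 0.0613).

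**Figure D4:**
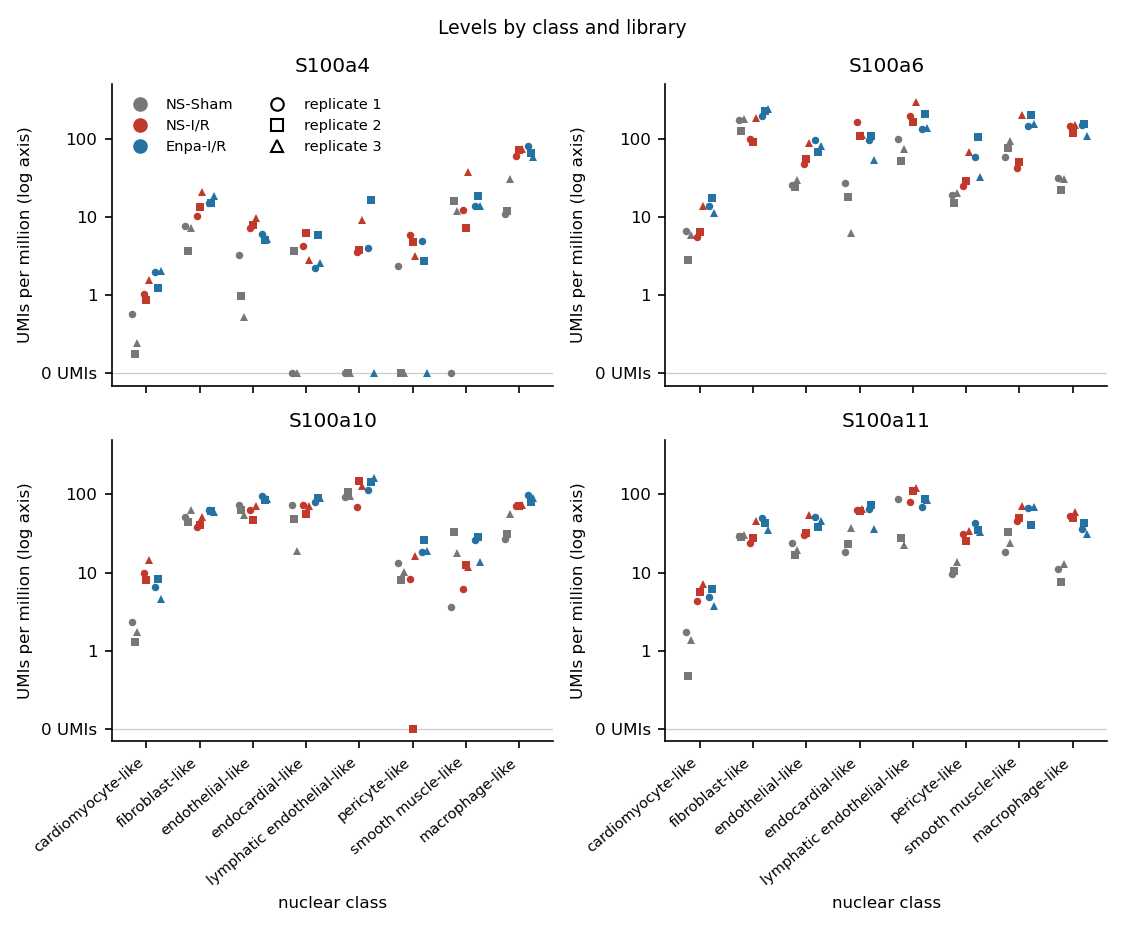
S100a4, S100a6, S100a10 and S100a11 CPM by cell class on a log axis, 1 point per library, coloured by group. Macrophage-like nuclei of the I/R hearts lay above the sham hearts for all 4 genes, and cardiomyocyte-like nuclei did so for S100a10 and S100a11. Fibroblast-like nuclei were among the highest for S100a6 in sham and enpatoran I/R hearts. In saline I/R their pooled level, 128.5 CPM, lay below those of macrophage-like (140.6) and lymphatic endothelial-like nuclei (226).

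S100a10, or p11, is a member that does not need calcium and forms a tetramer with annexin A2. It was called higher in cardiomyocyte-like and macrophage-like nuclei. Cardiomyocyte-like nuclei held 2.34, 1.31 and 1.73 CPM in sham hearts, 9.85, 8.13 and 14.6 in saline I/R and 6.58, 8.38 and 4.60 in enpatoran I/R. No sham value overlapped with an I/R value, and the log2 change after I/R was 2.62 (SE 0.321, adjusted p = 0.000185). That call held in all 16 alternatives, but its size ran from 1.195 to 2.83. Macrophage-like nuclei rose by 0.96 (SE 0.237, adjusted p = 0.0054), from 26.8, 30.8 and 56.3 to 71.9, 72.1 and 72.5, but within cluster 14 alone it was 0.86 and not called (adjusted p = 0.0614). Endothelial-like nuclei, with 72.3, 63.1 and 54.3 in sham hearts and 64.0, 47.1 and 72.0 in saline I/R, overlapped and did not pass the test (log2 -0.14, adjusted p = 0.539). Fibroblast-like nuclei were called lower at -0.42 (SE 0.157, adjusted p = 0.0422), but the call was lost in 12 alternatives, and that over all nuclei, at 0.40 (SE 0.134, adjusted p = 0.0319), in 7. Within fibroblast clusters 10 and 13 it was not called (-0.06 and -0.16). Among the left-out libraries, the fibroblast-like call was lost without sham replicate 1 or 3 (adjusted p = 0.0808 and 0.163), saline I/R replicate 1 or 2 (0.131 and 0.128) or any enpatoran I/R replicate (0.0581, 0.0589 and 0.0638). That over all nuclei was lost without any sham replicate (0.0528, 0.0877 and 0.104), saline I/R replicate 3 (0.0629) or enpatoran I/R replicate 2 (0.0509).

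Both cluster makeup and pooled levels within clusters moved with S100a10 in the cardiomyocyte-like class, the latter on few UMIs. Cluster 4 held 15.3 CPM in saline I/R and 10.8 in enpatoran I/R, and all but 1 of its nuclei came from I/R hearts. Cluster 1 held 1.35 in sham hearts, 4.69 in saline I/R and 5.45 in enpatoran I/R, and within it the change was not called (log2 1.87, adjusted p = 0.227). Cluster 2 held 1.39, 3.23 and 3.86, cluster 0 held 5.79, 12.04 and 11.6, and cluster 3 held 4.03, 12.3 and 12.6. Pooled levels were thus higher in saline I/R than in sham hearts in each of these 4 clusters, of which cluster 1 alone was tested. They rested on few UMIs, with 0.00966 per nucleus on 207 sham nuclei in cluster 1. In saline I/R there were 0.0446 on 112 nuclei in cluster 2 and 0.0302 on 199 in cluster 0. Cluster 3 had 59 sham and 69 saline I/R nuclei. Cardiomyocyte-like nuclei supplied 15.5% of all S100a10 UMIs in saline I/R. The neutrophil ratio would give 3.096% of them in this class, the lowest such share of the 4 genes there.

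S100a11, which binds annexin A1, rose in 5 of the 8 classes. Macrophage-like nuclei went from 11.02, 7.47 and 12.8 CPM in sham hearts to 52.4, 49.3 and 59.2 in saline I/R and 36.0, 43.2 and 31.4 in enpatoran I/R. Cardiomyocyte-like nuclei went from 1.76, 0.475 and 1.36 to 4.30, 5.58 and 7.04 and to 4.85, 6.16 and 3.75. Neither class had an overlap between sham and I/R libraries, and the log2 changes after I/R were 2.39 (SE 0.292, adjusted p = 1.83e-05) and 2.33 (SE 0.408, adjusted p = 0.00136). Both calls held in all 16 alternatives, with sizes of 2.05 to 2.60 in macrophage-like and 1.37 to 2.72 in cardiomyocyte-like nuclei. Pericyte-like nuclei rose by 1.31 (SE 0.301, adjusted p = 0.00483), from 9.497, 10.5 and 13.6 to 30.8, 25.6 and 34.4. Endocardial-like nuclei rose by 1.26 (adjusted p = 0.0144; without sham replicate 1 or 2, 0.0676 and 0.0795) and endothelial-like nuclei by 0.89 (adjusted p = 0.0108; without sham replicate 2, 0.061). Within endothelial clusters 5 to 8 it was called in none (0.58 to 0.88, adjusted p = 0.165 to 0.400), while cluster 9, with 17 sham nuclei, made up 35.7% of the class in saline I/R. Fibroblast-like nuclei, with 29.4, 28.6 and 30.4 in sham hearts and 23.9, 27.4 and 45.6 in saline I/R, gave -0.01 (SE 0.222, adjusted p = 0.967). In cardiomyocyte cluster 1 the change was 0.87 and was not called (adjusted p = 0.569), and in macrophage cluster 14 it was 1.72 (adjusted p = 0.0365). The neutrophil ratio would give 17.7% of the S100a11 UMIs of cardiomyocyte-like and 14.5% of those of macrophage-like nuclei in saline I/R.

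The highest levels of S100a6, S100a10 and S100a11 per nucleus were in mesothelial-like nuclei of I/R hearts, cells of the outer lining of the heart. This class had 78, 77 and 54 nuclei in the sham, saline and enpatoran groups, 11 to 44 per library, so its fit was added after the data were seen. S100a6 averaged 1.26, 0.625 and 0.909 UMIs per nucleus in sham hearts, 2.92, 7.61 and 6.05 in saline I/R and 14.75, 7.5 and 1.25 in enpatoran I/R. S100a11 averaged 0.0571, 0.0938 and 0, then 1, 2.20 and 1.25, then 2.61, 1.64 and 0.25. Sham and saline I/R did not overlap for either gene, and enpatoran I/R replicate 3, with 12 nuclei, was far below the other enpatoran I/R libraries. The log2 changes after I/R were 2.22 for S100a6 (SE 0.575, adjusted p = 0.0215), 4.10 for S100a11 (SE 0.697, adjusted p = 0.00181) and 2.88 for S100a10 (SE 0.493, adjusted p = 0.00188), called in a class where 12.4% of genes were. In saline I/R this class supplied 10.97% of all S100a6 UMIs from 0.501% of the nuclei. Its median depth rose from 2894 to 5152 UMIs and its neutrophil markers from 0.0641 to 1.39 UMIs per nucleus. The cardiomyocyte markers Ttn and Myh6 stood there at 46.4 and 17.5 UMIs per nucleus in sham hearts and at 1.92 and 1.05 in saline I/R. The part of these shifts was not tested.

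S100b, the S100 protein of glia, was rare, with 79, 86 and 80 UMIs in the nuclei of the 3 groups. Schwann-like nuclei, the glia of cardiac nerves, held it at 0.583, 0.333 and 0.192 UMIs per nucleus in sham hearts, 0.0645, 0 and 0.143 in saline I/R and 0.138, 0.0909 and 0.0385 in enpatoran I/R. All 3 sham libraries were above all 6 I/R libraries, on 11 to 31 nuclei per library, and S100b did not pass the low-count filter of the fit added for this class. The Schwann markers also went down there, from 40.5 to 10.3 UMIs per nucleus between sham and saline I/R hearts, and their part was not tested. In fibroblast-like nuclei, which held 29.1% of sham S100b UMIs, levels were 4.20, 0.923 and 3.38 CPM in sham hearts and 2.69, 1.43 and 2.62 in saline I/R (log2 -0.32, SE 0.549, adjusted p = 0.659). Cluster 13, with 6.21% of the sham fibroblast-like nuclei, held 19.7 CPM in sham hearts. Cluster 10, with 93.6%, held 0.959. S100b overlaps Dip2a on the other strand, and reads of the 2 genes cannot be told apart where the counting does not use strand. S100a4 likewise overlaps the annotated gene Gm42674 on its own strand.

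Differences between classes in the I/R change were tested in 1 joint fit of the cardiomyocyte-, fibroblast-, endothelial- and macrophage-like sums, over the 6 class pairs. S100a10 rose more in cardiomyocyte-like nuclei than in fibroblast-, endothelial- or macrophage-like nuclei, by 3.00 (SE 0.272, adjusted p = 1.23e-09), 2.71 (adjusted p = 2.4e-08) and 1.58 (adjusted p = 0.000659) on the log2 scale. Fibroblast-like nuclei differed from macrophage-like nuclei in S100a6 by -2.86 (adjusted p = 2.5e-08), in S100a11 by -2.49 (adjusted p = 5.62e-06) and in S100a10 by -1.42 (adjusted p = 0.000446). In all, 15 differences were called among the 5 genes S100a1, S100a4, S100a6, S100a10 and S100a11, all of them in S100a6, S100a10 or S100a11, against 14.2% of all genes by pair. No pair was called for S100a1 or S100a4, which does not show that their changes were alike.

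Between enpatoran and saline I/R hearts, 9 of the 46 combinations tested were called, 3 higher and 6 lower in enpatoran I/R. Over all genes and the same classes 7.66% of tests were called, 3.25% higher and 4.41% lower. Without S100a8 and S100a9, which passed the filter through the I/R libraries, 3 of 36 were called, all higher. This comparison and that with sham both use the saline I/R hearts, so a low or high saline I/R library moves both. All 6 lower calls were calprotectin. S100a9 was lower in endothelial-like (log2 -1.41, SE 0.262, adjusted p = 0.00997), fibroblast-like (-1.65, SE 0.423, adjusted p = 0.0336), macrophage-like (-1.31, SE 0.336, adjusted p = 0.0307) and pericyte-like nuclei (-1.63, SE 0.451, adjusted p = 0.0488), and S100a8 in fibroblast-like (-1.51, SE 0.434, adjusted p = 0.0484) and macrophage-like nuclei (-1.74, SE 0.359, adjusted p = 0.0131). In endothelial-like nuclei S100a9 stood at 0.0252, 0.0446 and 0.0258 UMIs per nucleus in enpatoran I/R, all below the 0.0674 to 0.113 of saline I/R. The neutrophil markers moved the same way in this class, from 0.296 to 0.105 UMIs per nucleus, and neutrophil-like nuclei from 8.84% to 2.72% of all nuclei. Their part was not tested.

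The 3 higher calls were S100a1 in cardiomyocyte-like nuclei (0.93, SE 0.287, adjusted p = 0.0468), S100a6 in fibroblast-like nuclei, given above, and S100a10 in endothelial-like nuclei (0.60, SE 0.164, adjusted p = 0.0442), where it stood at 96.8, 84.0 and 86.5 CPM in enpatoran I/R, above all saline I/R and sham libraries. That S100a10 call was lost in 12 of 16 alternatives and was made in none of endothelial clusters 5 to 8 (adjusted p = 0.252 to 0.8995). Cluster 9, at 46.8 CPM in saline I/R and 81.4 in enpatoran I/R, went from 35.7% to 14.1% of the class. The S100a6 call was made in neither fibroblast cluster 10 nor 13 (adjusted p = 0.238 and 0.761). S100a4 gave 0.00 in macrophage-like nuclei, and S100a10 gave -0.71 in cardiomyocyte-like nuclei (adjusted p = 0.099), neither called. Over all nuclei 2 of 8 members were called, against 16.5% of genes: S100a9 at -1.32 (SE 0.356, adjusted p = 0.0347) and S100a1 at 0.80 (SE 0.241, adjusted p = 0.0481).

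These calls between the I/R groups lie close to the threshold and depend on single libraries. Their number by class was 3, 5 and 3 without sham replicate 1, 2 or 3, 2, 4 and 16 without saline I/R replicate 1, 2 or 3, and 0, 1 and 1 without enpatoran I/R replicate 1, 2 or 3. Without saline I/R replicate 3 the S100a9 differences became smaller, at -1.08 in endothelial-like (adjusted p = 0.00228), -0.91 in fibroblast-like (adjusted p = 0.0174), -1.08 in pericyte-like (adjusted p = 0.0875) and -0.72 in macrophage-like nuclei (adjusted p = 0.053). S100a8 was then at -0.75 in fibroblast-like (adjusted p = 0.0591) and -1.17 in macrophage-like nuclei (adjusted p = 0.00603). Over all nuclei S100a9 was then at -0.76 (adjusted p = 0.0254).

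Genes that work with S100 proteins were followed as a list of 25: other S100 genes, protein partners and targets, and receptors. After I/R 7 of 18 tested were called in cardiomyocyte-like nuclei, all higher, with a median log2 change of 0.50 against 0.01 over all genes, of which 45.3% were called there. They included Anxa2, the partner of S100a10 (4.73, adjusted p = 1.16e-05), Myh9, the non-muscle myosin bound by S100a4 (2.85, adjusted p = 4.55e-06), and Ahnak, a scaffold bound by the S100a10 and annexin A2 complex (1.94, adjusted p = 0.000102). Cd14, a co-receptor of TLR4, was called there on 4 sham and 42 saline I/R UMIs. In macrophage-like nuclei 6 of 17 were higher and 1 lower (background 34.8%), among them Tlr4 (2.39), Anxa2 (2.16), Cd14 (1.60) and Anxa1 (1.01). Tlr4 stood there at 148, 127 and 115 CPM in sham hearts and at 902, 958 and 294 in saline I/R, with replicate 3 far below the others. In endothelial-like nuclei 6 of 18 were higher and 3 lower (background 35.4%), among them Tlr4 (1.13) and Cd14, the latter on 3 sham and 43 saline I/R UMIs, so that it passed the filter through the I/R libraries.

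In fibroblast-like nuclei more list genes were lower than higher, with 1 of 18 higher and 6 lower (background 46.5%). Over all genes 6241 of 13428 were called in this class, 3124 of them higher. Myh9 rose by 1.43 there, whereas S100a13, Anxa6 and S100a7a were lower, the last from 90 UMIs in sham hearts to 5 in saline I/R (log2 -4.65, adjusted p = 5.74e-05). S100a7a stood at 37 UMIs in enpatoran I/R (3.00 against saline I/R, adjusted p = 0.02, where 9.56% of genes were called). Tlr4 was also higher in endocardial-like (1.32), pericyte-like (1.04) and smooth muscle-like nuclei (1.76), where 10.7%, 23.9% and 6.25% of genes were called. Between the I/R groups, the 5 list genes called in cardiomyocyte-like nuclei were all lower in enpatoran I/R (background 18.8%), including Ahnak (-1.66, adjusted p = 0.00571), Anxa2 (-1.01, adjusted p = 0.0327) and Myh9 (-0.90, adjusted p = 0.0113). Tlr4 was lower in macrophage-like nuclei (-1.61, adjusted p = 0.00634), where 6.38% of genes were called. It stood there at 902, 958 and 294 CPM in saline I/R and at 255, 218 and 232 in enpatoran I/R. Saline I/R replicate 3 thus lay close to the enpatoran hearts, and replicates 1 and 2 carried most of the difference.

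The genes most like a member were named by Pearson r of log2(CPM + 1) over 27 sums of a class in a group, among 9793 genes. These sums share libraries and depth, so the values are a description. For S100a8 they were S100a9 (0.989), Il1r2 (0.965) and Cxcr2 (0.962), and for S100a9 they were S100a8, Il1r2 (0.968) and Hp (0.962), of which Il1r2 and Cxcr2 were neutrophil markers here. For S100a1 they were Atp5g1 (0.884), Mb (0.862) and Cox6a2 (0.862), a subunit of ATP synthase, myoglobin and a subunit of cytochrome oxidase. For S100a6 the nearest was S100a11 (0.919), and for S100a11 it was Ubb (0.940), a ubiquitin gene. S100a4 was nearest to Rrbp1 (0.867) and S100b, at a mean of 1.57 CPM, to Sfxn1 (0.779).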

How the data were processed

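Nuclei from flash-frozen, powdered hearts were released with detergent and homogenization, cleaned over iodixanol and sequenced as 10x 3' v3.1 libraries, per the labels' protocols. The deposited values are raw UMI counts per gene and barcode. Cell Ranger 8.0.0 is named in the file headers and Cell Ranger 6.1.1 in the submitters' processing notes, which also list Seurat and the builds GRCm39 and GRCh38 with no role. Whether intron reads or strand were counted is not given in the sources used here. Gene positions came from a GRCm38 annotation by gene symbol or ID, and sequences from RefSeq GRCm38.p6.

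Nuclei with at least 500 genes and at most 5% mitochondrial UMIs were kept, and 133 to 538 barcodes per library with the highest Scrublet scores (scanpy 1.11.5) were removed as doublets. Scrublet's own threshold called 0 to 308 and was not used. The deposited libraries held 19.7 M to 38.97 M UMIs (M, 1000000). Clustering used 2000 variable genes, 30 principal components and Leiden at resolution 1, without S100 genes or the partner list. Clusters were named from 14 marker sets by thresholds set after the data were seen.

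For each class, the UMI counts of its nuclei were added up by library. The 8 classes in which no library had fewer than 25 nuclei went into edgeR 4.0.16, with genes kept by filterByExpr, TMM scaling and the quasi-likelihood test, without covariates and with all 9 libraries in 1 fit (the 6 I/R libraries for neutrophil-like nuclei). P-values were Benjamini-Hochberg adjusted over all genes of a class and contrast and called under 0.05. The SE is the absolute log2 change over the square root of F. Class differences came from a joint edgeR fit with library nested in group. Levels are unscaled, while fold changes use TMM. Simulated counts with known changes were used to test the edgeR step. Libraries are separate hearts.

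The members, gene lists and tests were chosen with earlier results of these data known. All 8 members are named, with up to 4 called list genes per class by size of change and the 3 genes most like a member, leaving out predicted-gene symbols; fewer are printed. Alternatives were DESeq2 size factors, the Wald test of DESeq2 1.42.0, limma 3.58.1 (voom with library as a random block), no low-count filter, a block for replicate number, omission of single libraries, mitochondrial UMIs up to 20%, doublets kept, other thinning, and subtraction of each gene at its neutrophil ratio to S100a9. Fits within clusters and in mesothelial-like and Schwann-like nuclei were added after the data were seen. For 1 member, the most similar genes are not reported here.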

Additional observations from a re-analysis of the deposited data

Results flagged for a closer look

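The I/R changes of S100a6, S100a10 and S100a11 differed between cell classes by the joint edgeR test, and each difference called is given as the first class minus the second on the log2 scale. Cardiomyocyte-like minus fibroblast-like nuclei gave 1.29 for S100a6 (SE 0.266, adjusted p = 0.000532), 2.415 for S100a11 (SE 0.312, adjusted p = 8.47e-07) and 3.00 for S100a10. Cardiomyocyte-like minus endothelial-like nuclei gave 1.45 for S100a11 (adjusted p = 0.00215) and 2.71 for S100a10. Cardiomyocyte-like minus macrophage-like nuclei gave -1.56 for S100a6 (adjusted p = 0.0011) and 1.58 for S100a10. Fibroblast-like nuclei minus endothelial-like nuclei gave -1.72 for S100a6 (adjusted p = 2.03e-05) and -0.96 for S100a11 (adjusted p = 0.014).

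Fibroblast-like minus macrophage-like nuclei gave -2.86 for S100a6, -2.49 for S100a11 and -1.42 for S100a10. Endothelial-like minus macrophage-like nuclei gave -1.14 for S100a6 (adjusted p = 0.0211), -1.53 for S100a11 (adjusted p = 0.00602) and -1.125 for S100a10 (adjusted p = 0.00625). Of these 15 differences, 11 were called under all 13 alternatives run. The exceptions were fibroblast-like minus endothelial-like S100a11, called in 10 of the 13, and the 3 endothelial-like minus macrophage-like differences, called in 9 for S100a6, 12 for S100a11 and 11 for S100a10.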

How the results depend on the processing

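Between saline I/R and sham, the 30 member calls by class ran from 27 to 32 with single libraries left out and from 22 (neutrophil-ratio subtraction, which removes S100a9 by construction) to 36 (no low-count filter) otherwise, and the 7 calls over all nuclei from 5 to 7. The 15 class differences ran from 12 to 16, and the 37 partner and receptor calls from 28 to 52. Neither range covers a mitochondrial limit of 20% or doublets kept. The calls between enpatoran I/R and saline I/R depended most on the settings. By class, 9 became 15 with no low-count filter, 5 with a mitochondrial limit of 20%, 2 after the neutrophil-ratio subtraction, and 0 to 16 with single libraries left out. Over all nuclei, 2 became 0 with the 20% limit and 0 to 4 with libraries left out. In neutrophil-like nuclei, 0 became 1 with DESeq2, 1 with the 20% limit and 0 to 2 with libraries left out. The excess share of macrophage-like nuclei with an S100a9 UMI, 6.29 percentage points, was 11.1 with no thinning, 3.41 with thinning to 500 UMIs and 5.40 to 7.23 with libraries left out. The S100a9 level outside leukocytes in saline I/R, 0.0897 UMIs per nucleus, was 0.0657 without saline I/R replicate 3. S100a10 in cardiomyocyte-like nuclei, -0.71 between the I/R groups and not called, turned to 0.12 with the 20% limit. Where a cause is not named, it was not tested.

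Among comparisons of a single member in a class under an alternative, 1294 kept direction and side of the threshold, 120 lost a call, 42 gained one and 1 changed sign. A further 21 uncalled differences were smaller than their SE, and 15 of them changed sign at least once. Whether the replicate numbers pair hearts is not settled. Same-numbered libraries correlated at -0.272 to 0.112 and the others at -0.186 to 0.216. Between sham and saline I/R the same-numbered pairs gave 0.101, 0.112 and 0.111, above the other pairs, at -0.186 to 0.0719. Same-numbered pairs with an enpatoran I/R library gave -0.272 to 0.0967. With the replicate block, calls were 32 by class and 6 over all nuclei after I/R, 9 and 1 between the I/R groups, 2 in neutrophil-like nuclei and 34 for the partner list. Depth limits the rare members: S100b passed the filter in 1 class of 8.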
